A study of Rattus norvegicus with 34 samples.

Results

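The genes described here are the immediate early transcription factors of the AP-1 and EGR families together with Ier2, which were followed in the heart and the blood cells of rats 2 months after myocardial infarction. Members were taken by gene symbol from a list of 10 genes (Fos, Fosb, Fosl1, Fosl2, Jun, Junb, Jund, Egr1, Atf3 and Ier2), and each was read from the transcript cluster with its symbol that had the highest mean in the tissue. 9 of the 10 genes were measured, by 10 of the 29214 transcript clusters of the array. No cluster carried Fosb as its 1 symbol, and Fosb has no value here. Fosl2 had a second cluster, whose differences from sham-operated rats lay within 0.10 of 0 in every comparison on the log2 scale.

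AP-1 is a dimer of a Fos protein (Fos, Fosb, Fosl1, Fosl2) with a Jun protein (Jun, Junb, Jund), or of Jun proteins with each other or with relatives such as Atf3. Egr1 is a zinc finger factor that binds GC-rich sites. Most of these genes are immediate early genes: growth factors, stretch, hypoxia and stress switch on their transcription within minutes through mitogen-activated protein kinases, serum response factor and CREB, with no need for new protein, and the transcripts are short-lived. In heart muscle they are known for their rapid induction by pressure load and ischaemia, and in monocytes for their induction on activation.

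All animals were male Wistar rats. In the sham-operated controls the chest was opened and the suture was left untied, whereas in the others the proximal left coronary artery was tied off and the rats were grouped by infarct size into small (S-MI), moderate (M-MI) and large (L-MI) infarcts. Left ventricle (LV) RNA came from 6 sham, 6 S-MI, 6 M-MI and 5 L-MI rats, and peripheral blood mononuclear cell (PBMC) RNA from 6 sham and 5 L-MI rats, on 1 array each. Sham rats gave the whole LV and infarcted rats the part outside the visible scar. Each LV comparison with sham thus also sets whole against part. The PBMCs were a mixed fraction from a density gradient. Before sampling, the rats were anaesthetized with ketamine and xylazine and had echocardiography and LV catheterization. The part of these steps in the values was not tested. The labels of L-MI replicate 1 conflicted in both tissues, since the title named a large infarct and the description a compensated injury. It was kept as L-MI, and without it no member gained or lost a call. All 8 cardiomyocyte markers, among them Myh6, Tnnt2 and Pln, lay in the top 2% of clusters by mean signal in LV and below the median in PBMCs. Array medians ran from 6.52 to 6.61 in LV and from 6.97 to 7.01 in PBMCs, so levels were not compared between tissues. Nor were they compared between genes, because each cluster has its own probes.

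Promoter sequence from RefSeq (assembly GRCr8) was at hand for 7 of the 10 genes, those of Fos, Jun and Atf3 not being in the table used. 3 are shown because they cover the pattern of sites among the members: Ier2 and Jund carry a full cyclic AMP response element, and Junb carries none, like the other 4 of the 7 windows. Each is the 250 bases before the transcription start, 5′ to 3′ on the gene's strand, and capitals mark the motifs found.

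Ier2, chr19:40399123-40399372, plus strand: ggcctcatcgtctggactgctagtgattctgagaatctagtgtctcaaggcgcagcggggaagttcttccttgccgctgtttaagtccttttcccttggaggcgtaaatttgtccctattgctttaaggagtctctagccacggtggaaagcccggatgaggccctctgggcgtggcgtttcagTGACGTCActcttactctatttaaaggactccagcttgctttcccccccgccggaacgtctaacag
Jund, chr16:18769772-18770021, minus strand: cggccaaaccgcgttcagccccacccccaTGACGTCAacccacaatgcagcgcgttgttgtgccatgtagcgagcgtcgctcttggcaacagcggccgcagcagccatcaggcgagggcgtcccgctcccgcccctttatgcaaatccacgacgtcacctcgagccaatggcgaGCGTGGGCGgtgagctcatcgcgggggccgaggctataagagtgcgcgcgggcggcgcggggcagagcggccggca
Junb, chr19:40080876-40081125, plus strand: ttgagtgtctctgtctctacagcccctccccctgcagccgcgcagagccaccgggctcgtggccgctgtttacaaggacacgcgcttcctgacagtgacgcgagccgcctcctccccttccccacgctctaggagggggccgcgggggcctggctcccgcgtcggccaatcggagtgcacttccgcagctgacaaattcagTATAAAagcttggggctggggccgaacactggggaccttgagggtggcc

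Motifs were searched on both strands and none of the matches overlapped another. The cyclic AMP response element TGACGTCA began at position -66 of Ier2 and at -221 of Jund, counted from the start site, and was present in 1.59% of 33469 rat promoters of the same length. The EGR site was searched as GCGTGGGCG, found in Jund at -76 and in 0.478% of promoters, and as GCGGGGGCG, found in Fosl2 at -249 and in 2.45%. TATAAA stood at -49 in Junb and on the other strand in Fosb, against 12.9% of promoters. Egr1 held 2 matches to the CArG box, the site of serum response factor, at -105 and -83, and 1.5% of promoters held at least 1. The AP-1 site TGAGTCA, present in 4.05% of promoters, was in none of the 7 windows. A match describes letters in the window and not a bound factor.

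The first question was whether the blood cells of rats with a large infarct differed in these genes from those of sham rats. The rule applied to PBMCs was a fold change of at least 1.2 with an unadjusted p of at most 0.05. It takes the study's fold and p, whose methods name a correction for LV and none for PBMCs, although the heading of its PBMC gene list speaks of adjusted values. Jun was the 1 member of 9 that passed, and it was lower in L-MI. By that rule 0.924% of all clusters passed (270 of 29214), and by an adjusted p of at most 0.05 in limma with the same fold 0% passed. With 1 array left out the count of clusters ran from 238 to 475, the highest without L-MI replicate 3. The study's own annotation of its PBMC list names both Jun and Jund among the genes that differed. Jund did not pass here, at -0.09 ± 0.07 (SE; unadjusted p = 0.2167 in limma).

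Jun, the founding AP-1 partner and substrate of the Jun N-terminal kinases, had log2 signals of 9.37, 8.96, 8.90, 9.55, 9.19 and 9.20 in the 6 sham rats. It had 8.77, 8.93, 9.08, 8.33 and 8.95 in the 5 L-MI rats. All L-MI arrays lay below the sham median and 2 lay below every sham array, so that the groups overlapped. The log2 fold change was -0.38 ± 0.14 (SE), with a 95% confidence interval from -0.69 to -0.08, a 1.3-fold lower mean. The unadjusted p in limma was 0.0176, the adjusted p over all clusters 0.9997 and the two-sided exact permutation p over the arrays 0.0325. By p, Jun ranked 347 of all clusters. The call stayed with each array left out in turn, at values from -0.45 to -0.26, and was lost with the replicate number as a block (unadjusted p = 0.0712 in limma). In mixed PBMCs fewer cells of a type that holds Jun transcript and less transcript per cell cannot be told apart.

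Ier2, a small nuclear protein gene induced with the AP-1 genes, read 8.76, 8.51, 8.45, 8.94, 8.53 and 8.50 in sham and 8.47, 8.15, 8.74, 8.20 and 8.39 in L-MI. Here 3 of the 5 L-MI arrays lay below all sham arrays and 1 lay near the top of the sham range. The difference was -0.22 ± 0.12 (SE; interval -0.47 to 0.03; unadjusted p = 0.0750 in limma), and it did not pass. Without L-MI replicate 3 it was -0.31 and passed the rule.

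Fos read 8.17, 7.98, 8.40, 9.75, 8.06 and 7.66 in sham and 8.27, 7.45, 8.77, 7.48 and 9.42 in L-MI. The highest array was a sham rat, the next an L-MI rat, and both groups ran over about the same range. L-MI differed from sham by -0.06 ± 0.40 (SE; interval -0.93 to 0.82), which turned to 0.22 without sham replicate 4.

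Egr1 read 8.10, 8.29, 8.47, 9.41, 8.46 and 8.36 in sham and 8.71, 8.16, 8.99, 7.87 and 10.80 in L-MI. 1 L-MI rat was far above and 1 below all sham rats. L-MI differed from sham by 0.39 ± 0.43 (SE; interval -0.54 to 1.32; adjusted p = 0.9997 in limma), and it was -0.08 without L-MI replicate 5.

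The interval of Egr1 reached 2.49 times the sham mean, and that of Fos ran from 0.524 to 1.76 times. The 5 other members had differences between -0.11 and 0.03 with unadjusted p-values from 0.2167 to 0.7832 in limma. Junb, which competes with Jun for partners and is a weaker activator, had the largest of these, -0.11 ± 0.18 (SE), from sham arrays of 10.05 to 10.86 and L-MI arrays of 9.81 to 10.57. Jund, whose transcript is the least inducible of the Jun genes, had -0.09 ± 0.07 (SE), Fosl1 -0.06 ± 0.06 (SE), and Atf3, a stress-induced repressor, -0.06 ± 0.20 (SE). Fosl2 stood at 0.03 ± 0.12 (SE). Over the 9 genes the median difference was -0.06, with 2 above 0 and 7 below. Over all clusters the median was 0.00, with 47.3% above 0.

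**Figure D1:**
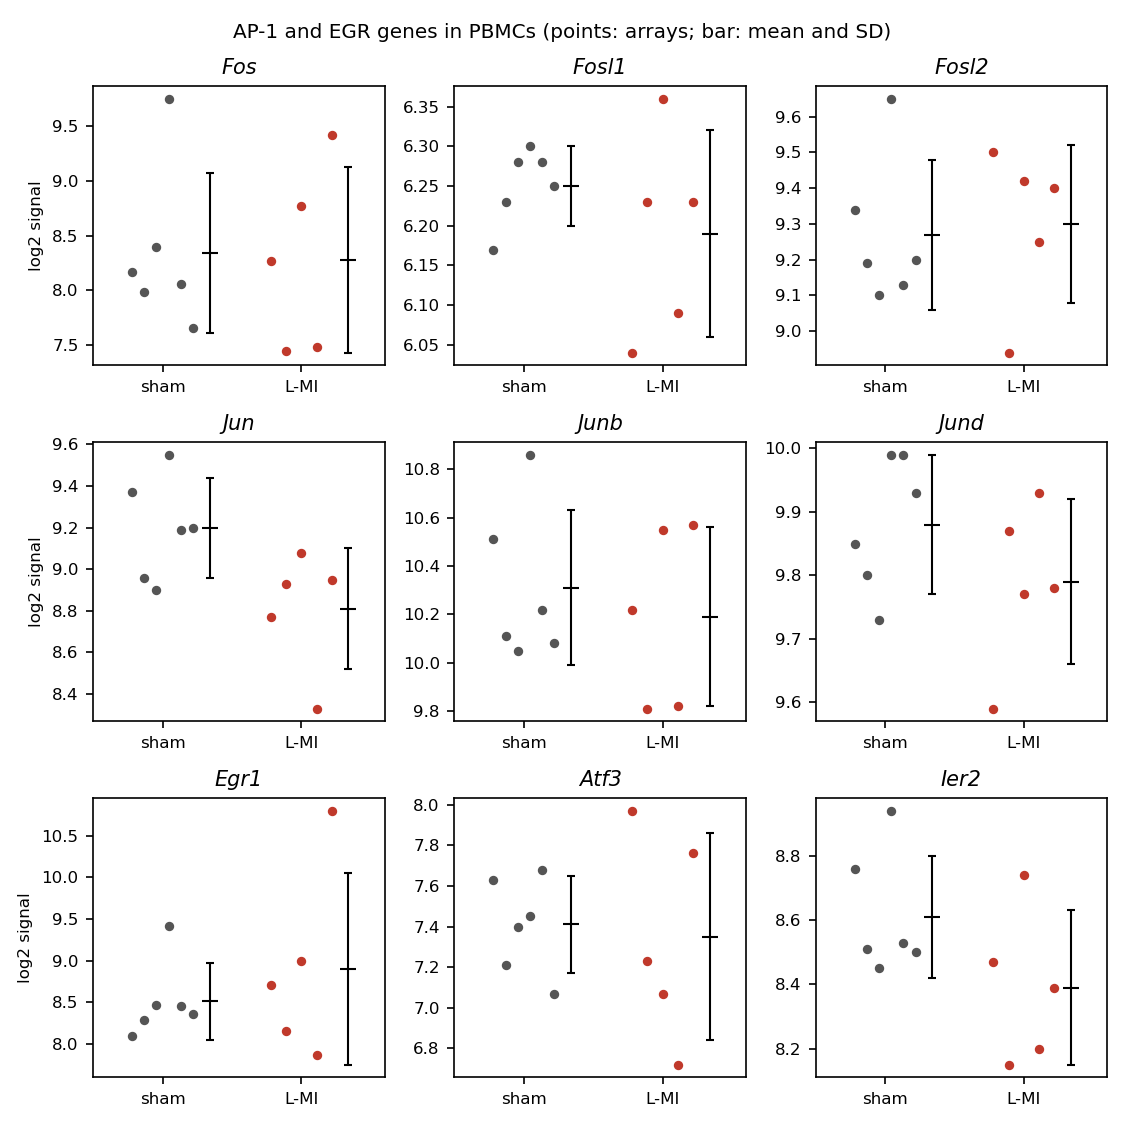
Log2 signal of the 9 measured genes in PBMCs, 1 point an array, in replicate order within 6 sham-operated and 5 L-MI rats, with the group mean and SD as the black bar. Jun sits lower in L-MI with overlapping groups, while Fos, Egr1 and Junb spread widely in both groups, with sham replicate 4 (Fos 9.75) and L-MI replicate 5 (Egr1 10.80) on top.

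In LV, the second question was whether the genes differed with infarct size. None of the 9 members passed the study's rule for LV (a fold change of at least 1.3 with an adjusted p of at most 0.05) in any of 5 comparisons. Against sham, 3.22% of all clusters passed in L-MI (608 higher and 333 lower), 0% in M-MI and 0% in S-MI. Against L-MI, 2.68% passed in the comparison with M-MI and 2.48% in that with S-MI. At an unadjusted p under 0.05 in limma, L-MI against sham held 0 of the 9 members and 21.5% of all clusters. At that level M-MI against sham held 0 members and 7.03% of clusters, and S-MI against sham 0 members and 6.33%. L-MI against M-MI held 1 member and 18.9% of clusters, and L-MI against S-MI 1 member and 21.3%.

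Junb had the largest difference in L-MI. Its log2 signals were 9.16, 8.43, 8.40, 8.49, 8.37 and 8.65 in sham and 8.94, 8.54, 8.81, 8.90 and 8.94 in L-MI. All 5 L-MI arrays lay above the sham median, but sham replicate 1 lay above every L-MI array. The log2 fold change was 0.24 ± 0.12 (SE), with an interval from -0.00 to 0.49. Its unadjusted p in limma was 0.0542, its adjusted p 0.243 and its two-sided exact permutation p 0.141. Without sham replicate 1 the difference was 0.36 with an adjusted p of 0.0202 in limma (0.0202 to 0.397 over all alternatives), still under the 1.3-fold threshold (0.38 on the log2 scale). In S-MI the arrays ran from 8.43 to 8.72 and in M-MI from 8.38 to 8.88. Between L-MI and S-MI the difference was 0.28 ± 0.12 (SE; unadjusted p = 0.0297, adjusted p = 0.1765 in limma), with 4 of 5 L-MI arrays above all S-MI arrays. In that comparison 21.3% of all clusters had an unadjusted p under 0.05 in limma.

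Egr1 read 10.44, 9.30, 8.97, 8.93, 8.72 and 9.24 in sham and 9.47, 8.86, 9.08, 9.74 and 9.85 in L-MI. A single sham rat was again the highest of the tissue, with the next of its group at 9.30. The log2 fold change in L-MI was 0.13 ± 0.25 (SE; interval -0.38 to 0.65; adjusted p = 0.826 in limma). In S-MI it was -0.26 ± 0.24 (SE), the largest difference of any member there, and in M-MI 0.00 ± 0.24 (SE). Without sham replicate 1 these became 0.37 in L-MI (adjusted p = 0.318 in limma) and -0.02 in S-MI.

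Fos read 7.60, 7.03, 6.59, 6.69, 7.00 and 6.77 in sham and 7.14, 6.72, 7.13, 7.18 and 7.20 in L-MI. All L-MI arrays but replicate 2 clustered between 7.13 and 7.20, and replicate 2 lay apart, inside the sham range. The log2 fold change was 0.13 ± 0.15 (SE; interval -0.18 to 0.44) in L-MI. Without sham replicate 1 it was 0.26 (unadjusted p = 0.0534, adjusted p = 0.250 in limma), and without sham replicate 3 it was 0.06. Against sham it was 0.15 ± 0.14 (SE) at moderate and 0.05 ± 0.14 (SE) at small infarct size.

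Jun, the gene called in PBMCs, read 9.58, 9.40, 9.28, 9.53, 9.74 and 9.60 in LV of sham and 9.66, 9.81, 9.55, 9.30 and 9.78 in LV of L-MI. Its log2 fold change was 0.10 ± 0.14 (SE; interval -0.20 to 0.40) in L-MI. It was -0.14 ± 0.14 (SE) at moderate and -0.06 ± 0.14 (SE) at small infarct size. M-MI spread most, from 8.98 to 9.83.

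Jund and Fosl1 varied little within groups. Jund read from 8.86 to 9.06 in the 6 sham rats, with a median of 8.94, and 9.04, 8.96, 9.05, 9.11 and 9.10 in L-MI. The difference of 0.10 ± 0.06 (SE) had an unadjusted p of 0.0917 and an adjusted p of 0.330 in limma. Its two-sided exact permutation p on its own arrays was 0.0455. Fosl1, which lacks the strong activation domain of Fos, read from 6.21 to 6.37 in L-MI, from 6.06 to 6.22 in M-MI and from 6.08 to 6.42 in sham. Its difference between L-MI and M-MI was 0.18 ± 0.06 (SE), the smallest p of any member in LV (0.0060 unadjusted, 0.0682 adjusted in limma). By p, Fosl1 ranked 2570 of all clusters in this comparison, where 18.9% had an unadjusted p under 0.05 in limma. Over all alternatives its adjusted p ran from 0.0267 to 0.1767 in limma. The difference stayed far under the fold threshold, at 1.14-fold. Of L-MI arrays, 4 of 5 lay above all M-MI arrays.

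Fosl2 stood 0.10 ± 0.07 (SE) higher in L-MI, Atf3 0.09 ± 0.18 (SE) higher and Ier2 0.08 lower (-0.08 ± 0.11, SE), with adjusted p-values of 0.430, 0.848 and 0.736 in limma. Atf3 in L-MI rested on replicate 5 (8.09 against 7.12 to 7.57 in the others), without which its difference was -0.07. The 9 genes had a median difference of 0.10 in L-MI, 8 of them above 0, beside -0.01 and 48% above 0 over all clusters. Medians were 0.01 in M-MI and -0.03 in S-MI. The confidence limits of all 9 genes in L-MI lay between -0.38 and 0.65, and Egr1 set both.

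**Figure D2:**
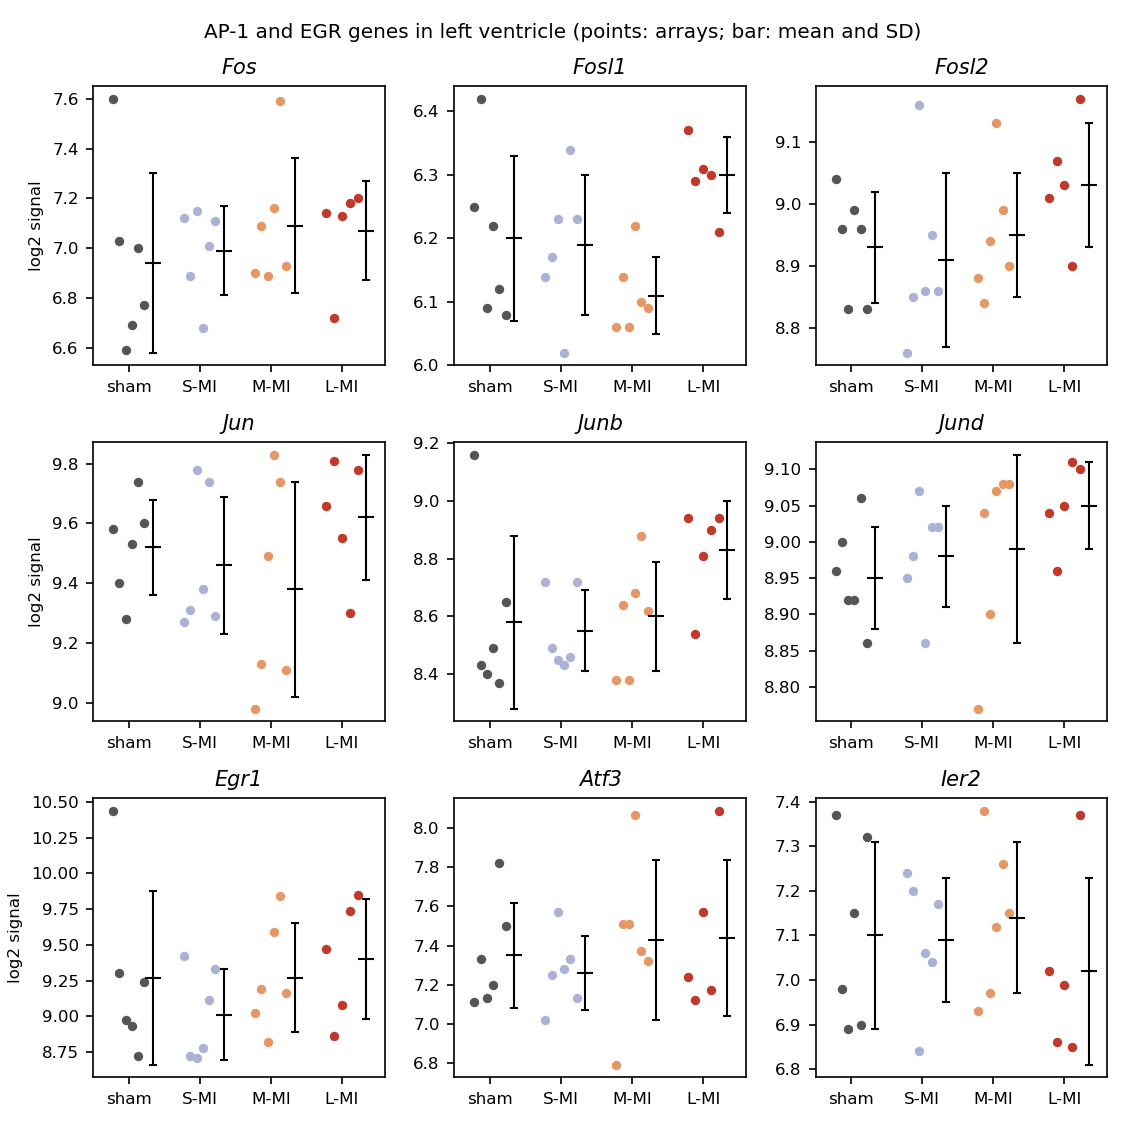
Log2 signal of the 9 measured genes in LV, 1 point an array in replicate order, in 6 sham-operated, 6 S-MI, 6 M-MI and 5 L-MI rats, with the group mean and SD as the black bar. The groups overlap for every gene, and sham replicate 1 is the highest array of the tissue for Fos (7.60), Junb (9.16) and Egr1 (10.44).

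**Figure D3:**
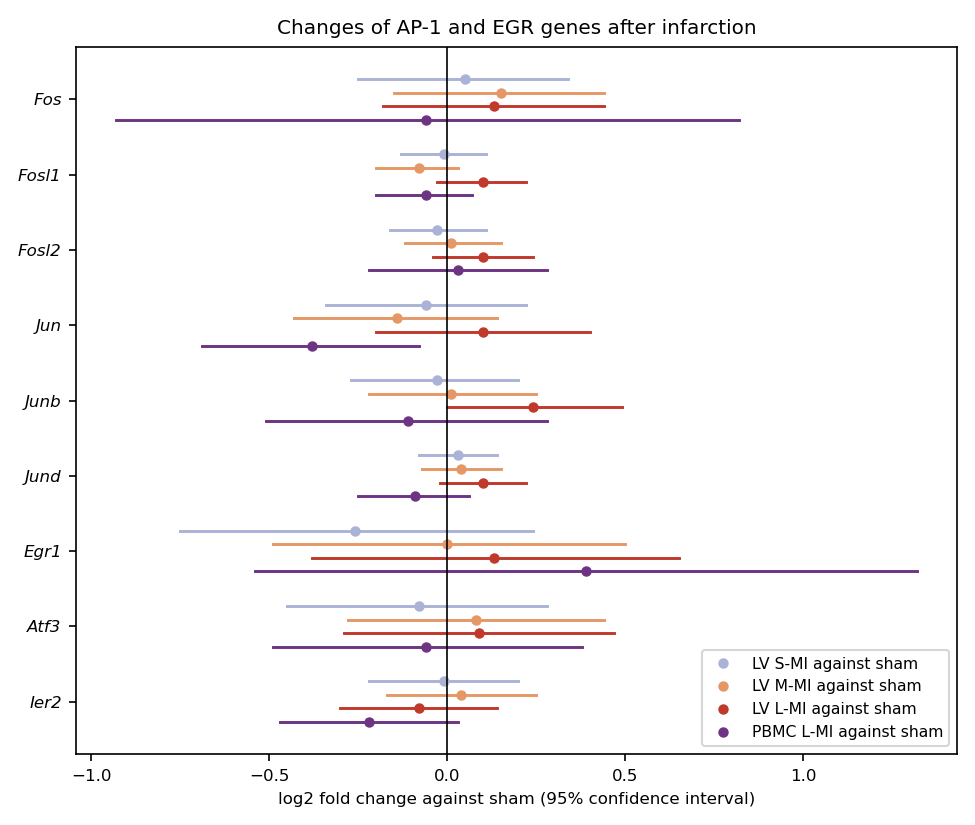
Log2 fold change against sham (points) with its 95% confidence interval (lines) for each gene in LV of S-MI, M-MI and L-MI and in PBMCs of L-MI, from limma. The interval of Jun in PBMCs (-0.69 to -0.08) is the 1 interval that leaves out 0, and those of Fos and Egr1 in PBMCs are the widest.

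Whether the L-MI effect differed between tissues was tested as the difference of both effects over 22 arrays. No member passed an adjusted p of at most 0.05, against 2.55% of all clusters, and 2 members and 13.2% of clusters had an unadjusted p under 0.05 in limma. For Jun the effect was 0.10 in LV and -0.38 in PBMCs, a difference of 0.48 ± 0.18 (SE; unadjusted p = 0.0142, adjusted p = 0.2048 in limma). For Jund it was 0.10 and -0.09, a difference of 0.19 ± 0.09 (SE; unadjusted p = 0.0378, adjusted p = 0.331 in limma). The same rats appear to have given both tissues, but which arrays share a rat was not given, so the fit treats all arrays as independent.

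Of the 9 genes, 6 in LV and 7 in PBMCs differed more between rats of 1 group than the median transcript did. In PBMCs the within-group SD was 0.84 for Egr1 and 0.79 for Fos on the log2 scale, higher than in 99.8% and 99.7% of all clusters, whose median was 0.12. Atf3 (0.38), Junb (0.34) and Jun (0.27) followed, at percentiles 96.9, 95.8 and 91.6. In LV, Egr1 had 0.45 (percentile 98.5), Atf3 0.33 (95.9), Fos 0.27 (92.8) and Jun 0.25 (91.8), beside a median of 0.13. Jund and Fosl1 stood at or below the median in both tissues, at 0.09 to 0.12, and Fosl2 stood below it in LV (0.11, percentile 31.1) and above it in PBMCs (0.21, percentile 86.2). Fos varied 4.26-fold from the lowest to the highest sham rat in PBMCs, and Egr1 7.59-fold among the L-MI rats.

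**Figure D4:**
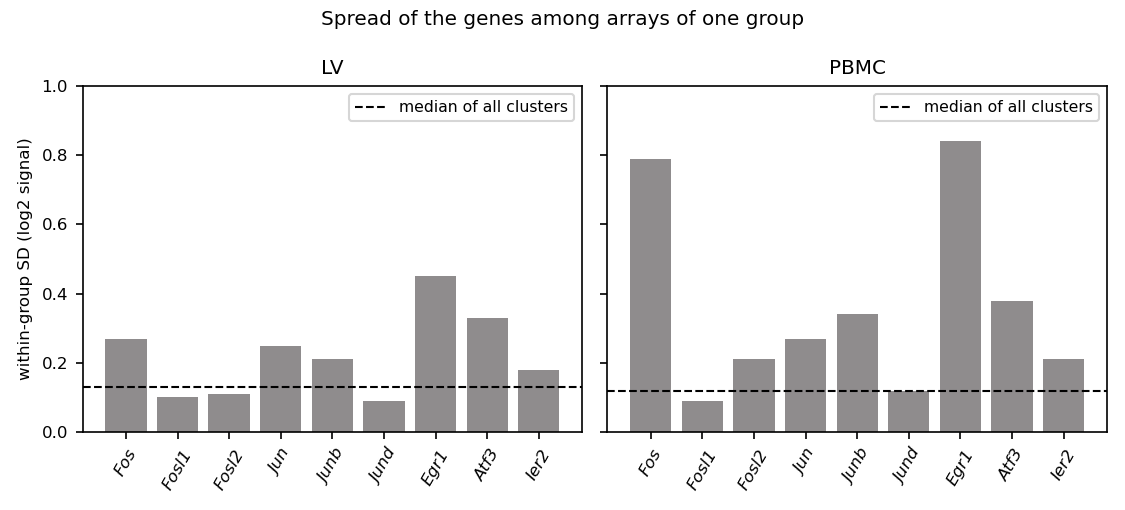
Within-group SD of the log2 signal for the 9 genes in LV (23 arrays in 4 groups) and PBMCs (11 arrays in 2 groups), with the median over all transcript clusters as the dashed line. Egr1 and Fos have the tallest bars in PBMCs (0.84 and 0.79), and Fosl1 and Jund lie at or below the line in both tissues.

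Some arrays were the highest or the lowest of their group for several genes. Sham replicate 4 was the highest of its group in PBMCs for 8 of the 9 genes, and sham replicate 3 was the lowest for 5. L-MI replicates 2 and 4 were the lowest of theirs for 4 and 3 genes. In LV, sham replicate 1, S-MI replicate 3 and L-MI replicate 5 were each the highest of their group for 5 genes. S-MI replicate 3 was also the lowest for 2, and L-MI replicate 2 was the lowest for 5. How often these arrays were highest or lowest over all clusters was not counted. To describe this, each gene was centred on its group means and set beside Fos over the arrays of a tissue. Of 16 relations between Fos and another member, 8 a tissue, the p-values come from permutations within groups and were adjusted over the 16.

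Junb followed Fos in LV with Pearson r = 0.81 and Spearman rho = 0.73 (permutation p = 0.00051 and 0.00034, adjusted 0.00408 and 0.00272, 23 arrays). In PBMCs it had r = 0.91 and rho = 0.85 (permutation p = 0.0019 and 0.00765, adjusted 0.0076 and 0.0245, 11 arrays). Without the 2 arrays farthest from the median of Fos, sham 1 and M-MI 5 in LV and sham 4 and L-MI 5 in PBMCs, r was 0.61 and 0.81.

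Egr1 had r = 0.80 and rho = 0.72 in LV (permutation p = 2e-04 and 0.00031, adjusted 0.0032 and 0.00272). In PBMCs it had r = 0.87 and rho = 0.86 (permutation p = 0.00114 and 0.00445, adjusted 0.00608 and 0.0178). Without the same arrays r was 0.62 and 0.75. Both genes therefore kept a positive relation to Fos without the extreme rats.

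The remaining members followed Fos less closely or in 1 tissue. Jund had r = 0.55 and rho = 0.60 in LV (permutation p = 0.0119 and 0.004, adjusted 0.0382 and 0.0178) and r = -0.10 in PBMCs, where r was -0.61 without the 2 farthest arrays. Fosl2 had r = 0.76 in PBMCs (adjusted permutation p = 0.0493; rho = 0.66, adjusted 0.0696) and 0.36 in LV, and Ier2 0.72 (adjusted permutation p = 0.0501) and 0.40. Jun had 0.60 in PBMCs and 0.31 in LV, Atf3 had 0.43 and 0.15, and Fosl1 had 0.41 and 0.39 (rho = 0.49 and 0.47), none with an adjusted permutation p at or under 0.05. The difference in r between tissues was not tested.

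**Figure D5:**
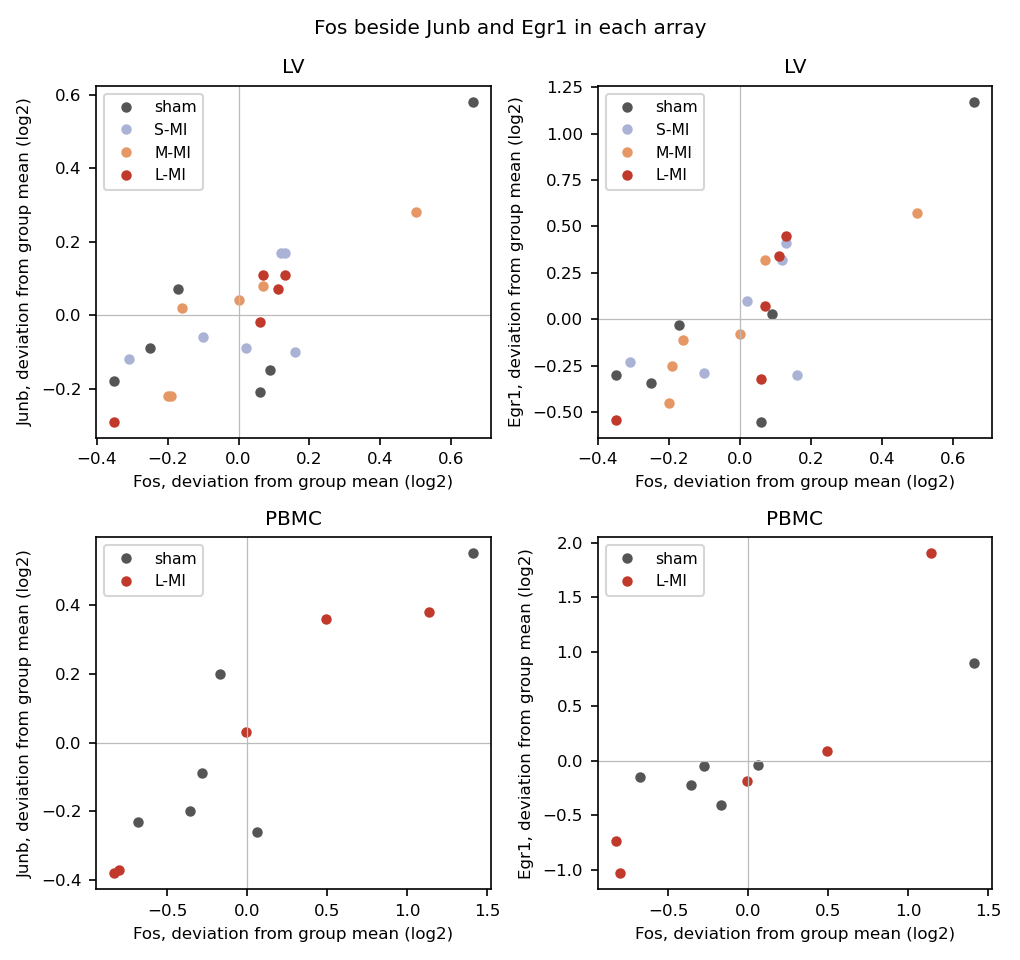
Deviation of Junb (left) and Egr1 (right) from the group mean against that of Fos, in log2 signal, in LV (top, 23 arrays) and PBMCs (bottom, 11 arrays), coloured by group. All 4 panels rise from lower left to upper right (r from 0.80 to 0.91), with 1 sham rat at the far right in each.

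Among all 15309 other clusters with 1 gene symbol, the 5 most like Fos in LV were Ccn1 (r = 0.84), Junb, Egr1, Ryr1 (0.75) and Nr4a1 (0.74). Ccn1 is a matricellular protein gene and Nr4a1 an orphan nuclear receptor gene, both immediate early genes, and Ryr1 is the skeletal muscle ryanodine receptor. In PBMCs they were Dusp1 (0.94), a phosphatase gene that ends mitogen-activated kinase signals, Rras (0.93), a small GTPase gene, Osm (0.91), the cytokine oncostatin M, Junb and Sowahc (0.90). Egr1 stood ninth there. Ryr1 in LV read only from 5.94 to 6.20 over all arrays, under the LV array medians of 6.52 to 6.61. Its group SDs were 0.05 to 0.08, beside a median within-group SD of 0.13 over all clusters. Of 43 other immediate early genes measured, 10 in LV and 21 in PBMCs had an r above the 95th percentile of all named clusters (0.41 and 0.53), where 5% lie by construction. Without the 2 arrays farthest in Fos, 3 of those 10 and 8 of those 21 stayed above the percentile recomputed on the remaining arrays (0.43 and 0.61), and in PBMCs Plk3 went from 0.68 to -0.09 and Nr4a2 from 0.66 to 0.12. Of the 19 measured AP-1 and EGR1 target genes, 4 in LV and 7 in PBMCs lay above, of which 2 and 3 stayed. Of 13 dimerization partners and repressors 1 and 3 lay above, of which 1 and 0 stayed, and among 14 upstream kinases and serum response factors none did in either tissue. These likenesses are over the same arrays and are a description.

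Cell type markers were set beside Fos in the same way. In PBMCs the mean of 6 macrophage and monocyte markers had r = 0.79 and rho = 0.78 with Fos (permutation p = 0.0135 and 0.017, adjusted 0.149 and 0.188 over 22 relations), and r = 0.78 without the 2 farthest arrays. All 6 markers had a positive r. The marker mean ran from 8.22 to 8.79 in sham and from 8.19 to 8.86 in L-MI, and none of the 6 was called between the groups. It was 8.79 in sham replicate 4, the highest of its group, and 8.86, 8.19, 8.71, 8.29 and 8.81 in the 5 L-MI rats. L-MI replicate 1 thus had the highest marker mean with Fos at 8.27. The value of L-MI replicate 5 was raised by Cd163, at 7.63 against 5.89 to 6.00 in the other L-MI rats, whereas its Cd68 (10.30), Csf1r (11.33) and Cd14 (8.61) lay below those of replicates 1 and 3. Mrc1 and Aif1, also on the list, were not compared between these rats in this way. Without Cd163 the mean of the 5 other markers had r = 0.64 and rho = 0.71 with Fos. In LV the mean of 5 smooth muscle and pericyte markers had r = 0.62 and rho = 0.73 with Fos (permutation p = 0.00137 and 0.00012, adjusted 0.0301 and 0.00264) and r = 0.63 without the 2 farthest arrays. It ran from 10.08 to 10.23 in sham and from 10.33 to 10.61 in L-MI, and 1 of the 5 was called higher. It was the 1 relation of the 22 (11 lists in each tissue) with an adjusted p at or under 0.05. The part of these cell types in the values of the AP-1 and EGR genes was not tested.

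Genes around AP-1 and EGR1 were read from 4 further lists. In LV of L-MI, 5 of 19 measured target genes were called higher and 0 lower, beside 3.22% of all clusters called in either direction. The list median was 0.35, beside -0.01 over all clusters. The lists were chosen with earlier results of these data known, and the paper reports Timp1, Spp1 and Tgfb1 as higher there. The count and median of the target list are therefore a description. In M-MI and S-MI 0 of any list were called.

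Timp1, an inhibitor of matrix metalloproteinases, rose by 1.23 ± 0.14 (SE; adjusted p = 6.54e-06 in limma), with L-MI arrays of 10.34, 9.98, 10.25, 10.52 and 10.53 and sham arrays from 8.87 to 9.31. Spp1, the gene of osteopontin, rose by 2.03 ± 0.32 (SE; adjusted p = 0.000188 in limma), from sham arrays of 5.99 to 6.78 to L-MI arrays of 7.83, 8.34, 7.46, 7.85 and 10.31. Neither gene's groups overlapped, and L-MI replicate 5 was the highest for both. Tgfb1, a profibrotic cytokine gene, rose by 0.40 ± 0.07 (SE) and Ccnd1, the gene of cyclin D1, by 0.50 ± 0.10 (SE), with adjusted p-values of 0.000498 and 0.00129 in limma. The fifth called target, named after its values were seen, was the monocyte chemokine Ccl2 (0.98 ± 0.27, SE; adjusted p = 0.0215 in limma). Without sham replicate 4, L-MI replicate 1 or L-MI replicate 4 Ccl2 was no longer called (adjusted p up to 0.0754 in limma), and without sham replicate 5, L-MI replicate 1 or L-MI replicate 5, or with arrays centred on their medians, Tgfb1 fell under the fold threshold at 0.35 or above. In the same LV samples all 6 macrophage and monocyte markers and 4 of 7 fibroblast markers were called higher. The monocyte mean ran from 8.28 to 8.84 in L-MI and from 7.75 to 7.99 in sham, and its part in the target genes was not tested. In PBMCs 0 of the 19 target genes passed, beside 0.924% of all clusters.

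Of the 43 other immediate early genes, 1 was called against sham in LV of L-MI (beside 3.22% of all clusters) and in PBMCs (beside 0.924%). In both this was Ptgs2, which encodes the inducible cyclooxygenase. In LV it read 5.96, 6.16, 5.92, 6.03, 5.92 and 6.03 in sham and 7.16, 6.54, 7.19, 6.66 and 8.02 in L-MI, without overlap. It rose by 1.11 ± 0.17 (SE; adjusted p = 0.000150 in limma). In PBMCs it read from 5.68 to 5.96 in sham and 6.15, 5.98, 6.10, 5.84 and 6.75 in L-MI, a difference of 0.37 ± 0.13 (SE; unadjusted p = 0.0146, adjusted p = 0.9997 in limma). Without L-MI replicate 5 it was 0.22 and not called. All PBMC values of Ptgs2 lay under the array medians of 6.97 to 7.01, so the share of background is unknown. The paper's RT-qPCR of Ptgs2 in PBMCs came near significance without reaching it. The list median was 0.08 in LV of L-MI and -0.04 in PBMCs. Between infarct sizes 2 genes of the list were called, Ptgs2 and, named after its values were seen, Hbegf, the gene of a growth factor that binds the EGF receptor. Of all clusters, 2.48% were called between L-MI and S-MI and 2.68% between L-MI and M-MI. Hbegf stood 0.42 ± 0.09 (SE; adjusted p = 0.00281 in limma) higher in L-MI than in S-MI and 0.38 ± 0.09 (SE; adjusted p = 0.005955 in limma) higher than in M-MI. The second call was at the fold threshold and was lost without any of M-MI replicates 1, 2, 3 and 6 or L-MI replicates 3, 4 and 5, or with arrays centred on their medians, at 0.35 or above.

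Among the 14 measured upstream kinases and serum response factors, Elk1, a ternary complex factor that binds beside serum response factor at the promoters of Fos and Egr1, was lower in LV of L-MI. It was the 1 gene of the list called there, where 3.22% of all clusters were called. Elk1 read 10.70, 10.60, 10.59, 10.72, 10.62 and 10.77 in sham and 10.18, 10.34, 10.10, 10.09 and 10.32 in L-MI, with no overlap. The log2 fold change was -0.46 ± 0.06 (SE; adjusted p = 4.71e-05 in limma), against -0.09 ± 0.06 (SE) at moderate and -0.16 ± 0.06 (SE) at small infarct size, neither called. In PBMCs it was -0.01 ± 0.07 (SE), and the effects in the 2 tissues differed by -0.45 ± 0.09 (SE; adjusted p = 0.00612 in limma). Fos and Egr1 themselves, in the same 11 LV arrays, differed from sham by 0.13 ± 0.15 (SE) and 0.13 ± 0.25 (SE). A link between Elk1 and these genes was not tested.

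Against sham, 0 of 13 measured dimerization partners and repressors were called, beside 3.22% of all clusters in LV of L-MI and 0.924% in PBMCs. The 2 with the smallest p in LV of L-MI were Nab2, a corepressor of Egr1 that Egr1 itself is known to switch on, at 0.22 ± 0.06 (SE; adjusted p = 0.0301 in limma), and Maf, at 0.19 ± 0.06 (SE; adjusted p = 0.0551 in limma). Both lay under the fold threshold. Nab2 read from 7.12 to 7.33 in sham and 7.42, 7.27, 7.45, 7.53 and 7.60 in L-MI, so that only 1 L-MI array lay inside the sham range.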

How the data were processed

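RNA of 34 samples was hybridized to Affymetrix Rat Gene 1.0 ST arrays. The authors deposited log2 signals per transcript cluster, normalized by RMA in Partek software. The base was not stated and was taken from the range of the values, and the genome build was not given in the sources used here. Clusters were named from platform annotation, 15310 with 1 symbol, 323 with several and 13581 with none. Groups came from the labels. Replicates are separate rats, and the number of arrays limits the precision. LV was fitted in limma 3.58.1 (R 4.3.3) over 23 arrays and 4 groups, PBMCs over 11 arrays, and p-values were adjusted by Benjamini-Hochberg over 29214 clusters. The members, lists and tests were chosen with earlier results of these data known. Besides the members, genes were named if called against sham (at most 4 a list, by p; the first 2 in LV of L-MI where none was called) or among the 5 most like Fos in a tissue. Lists held 100 pathway genes, 89 measured, and 65 markers in 11 cell types, 58 measured. Correlations used 100000 permutations within groups. Fits were tested on simulated data. Alternatives were limma-trend, no moderation, array weights, median centring, no dim clusters, the 2 groups alone, other thresholds, a replicate block and each array left out. Figures used matplotlib 3.10.9 with Python 3.11.15.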

Additional observations from a re-analysis of the deposited data

Results flagged for a closer look

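Single arrays standing apart were looked for in the 54 groups of values (9 genes in 6 groups of 5 or 6 arrays) by the gap to the nearest array over the range of the group, and 5 were found; about 1 group in 20 would be by chance. In PBMCs sham replicate 4 stood above its group for Fos (9.75 against 8.40, a gap of 0.650 of the range) and Egr1 (9.41 against 8.47, 0.716). In LV sham replicate 1 stood above its group for Junb (9.16 against 8.65, 0.646) and Egr1 (10.44 against 9.30, 0.661). In LV of L-MI, replicate 2 stood below its group for Fos (6.72 against 7.13, 0.858). The cause was not tested.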

How the results depend on the processing

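The count of members called was 0 in all LV comparisons and in the comparison of tissues under every alternative run and with each array left out, the replicate block included. In PBMCs it was 1, became 0 with the replicate block, 0 with an adjusted p and no fold threshold and 0 with an adjusted p and the same fold, and ranged from 1 to 2 with 1 array left out, the second being Ier2. With the block Jun in PBMCs kept its difference (-0.38) at an unadjusted p of 0.0712 in limma. Its adjusted p ran from 0.9259 to 1 over the alternatives. Replicate numbers did not pair the arrays throughout: deviations of same-numbered LV arrays of L-MI and sham correlated at -0.26 to -0.00, and in no comparison was every pair over 0.1. For LV of S-MI and sham they ran from -0.11 to 0.26, with 2 of 6 pairs over 0.1 and 3 best with their own number. In PBMCs they ran from -0.05 to 0.13, with 1 of 5 pairs over 0.1 and 0 best with their own number. These values do not settle whether some arrays were paired. With the block 928 clusters passed in LV of L-MI in place of 941, and 457 in PBMCs in place of 270, which ran from 238 to 475 with 1 array left out. Without a fold threshold 2769 passed in LV of L-MI. Values with a sign change were never called: with array weights Egr1 in LV of L-MI was -0.0050 and Fos in PBMCs 0.11. With 1 array left out, Atf3 in LV of L-MI ran from -0.074 to 0.18, and in PBMCs Fos ran from -0.35 to 0.22, Fosl2 from -0.015 to 0.13, Atf3 from -0.21 to 0.10 and Egr1 from -0.083 to 0.65. Of 63 member differences in all 7 comparisons, 23 changed sign in at least 1 alternative, and the largest of these was 0.39. The calls of Timp1, Spp1, Ccnd1, Ptgs2 and Elk1 in LV of L-MI held in all 32 alternatives, and that of Elk1 between tissues in all 30. Detection values were not used here, so the share of background in low signals is unknown. This holds for Fosl1, whose LV mean stood at percentile 43.5 of all clusters, and for Ptgs2 in PBMCs and Ryr1 in LV.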
